A study of Mus musculus with 16 samples.

Results

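Tuft1, Selenbp2 and Cgn are 3 protein-coding genes that follow each other within 175 kb of mouse chromosome 3. They form one set because they lie side by side and because each was higher in dendritic cells (DCs) lacking TRIM33, so the higher level itself is the reason for their choice and is described here without a test. The 3 genes were read from 17128 genes listed for plasmacytoid DCs (pDCs) and 17721 listed for conventional DCs (cDCs).

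The series holds 16 RNA-seq libraries of DC subsets sorted from the spleen of C57BL/6 mice aged 6 to 8 weeks. All mice carried floxed Trim33 alleles (Trim33 fl/fl). WT mice had no Cre, and cKO mice carried Itgax-Cre, in which the promoter of Itgax, the gene of CD11c, drives the recombinase. The groups were WT pDC (n = 3), cKO pDC (n = 3), WT cDC1 (n = 2), cKO cDC1 (n = 2), WT cDC2 (n = 3) and cKO cDC2 (n = 3). pDCs were gated as CD11c+ SiglecH+, and cDCs as CD11c+ SiglecH- MHC II+, divided into CD24+ CD172a- cDC1s and CD24- CD172a+ cDC2s. Estimated depth was 17.75 to 20.25 M reads per library. By the study's account each library is a separate biological repeat of cells pooled from several mice, with more mice per cKO library than per WT library. The spread between libraries is therefore one between pools, not between single mice.

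Tuft1 encodes tuftelin, an acidic protein first described in developing tooth enamel and also made in many soft tissues. Selenbp2 and its paralog Selenbp1 encode selenium-binding proteins that are abundant in liver, and SELENBP1 oxidises methanethiol to hydrogen sulfide, hydrogen peroxide and formaldehyde. Cgn encodes cingulin, a protein of the cytoplasmic plaque of epithelial tight junctions. None of them is a usual marker of DCs. TRIM33 is a nuclear ubiquitin ligase that binds modified histone H3 and SMAD proteins.

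In the RefSeq annotation of GRCm38.p6, the assembly that mm10 names, Tuft1 (gene ID 22156) occupies chr3:94612753-94658872, Selenbp2 (20342) chr3:94693573-94704406 and Cgn (70737) chr3:94760069-94787725. Tuft1 and Cgn lie on the minus strand and Selenbp2 on the plus strand. The gap from Tuft1 to Selenbp2 was 34.7 kb and that from Selenbp2 to Cgn 55.7 kb. Trim33 itself lies 8.49 Mb beyond Cgn on the same chromosome, at chr3:103279293-103358770.

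The intervals between the 3 genes hold copies of the members themselves. BC021767, a transcribed pseudogene between Tuft1 and Selenbp2, shares sequence with Cgn: 996 of the 4967 windows of 50 bases along the Cgn transcript (20.1%) occur in it. Gm15264, a pseudogene between Selenbp2 and Cgn, shares sequence with Tuft1, through 228 of 2582 windows (8.8%). Selenbp1 (gene ID 20341), 145.4 kb past Cgn at chr3:94933083-94944758, is on the plus strand like Selenbp2. The order is therefore Tuft1, a Cgn-like pseudogene and Selenbp2, followed by a Tuft1-like pseudogene, Cgn and, past Pogz and Psmb4, Selenbp1. Neither pseudogene has a row in the expression tables. Since the reads were 50 bases long, a read from a shared window of a pseudogene could not be told apart from one of its parent gene.

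**Figure D1:**
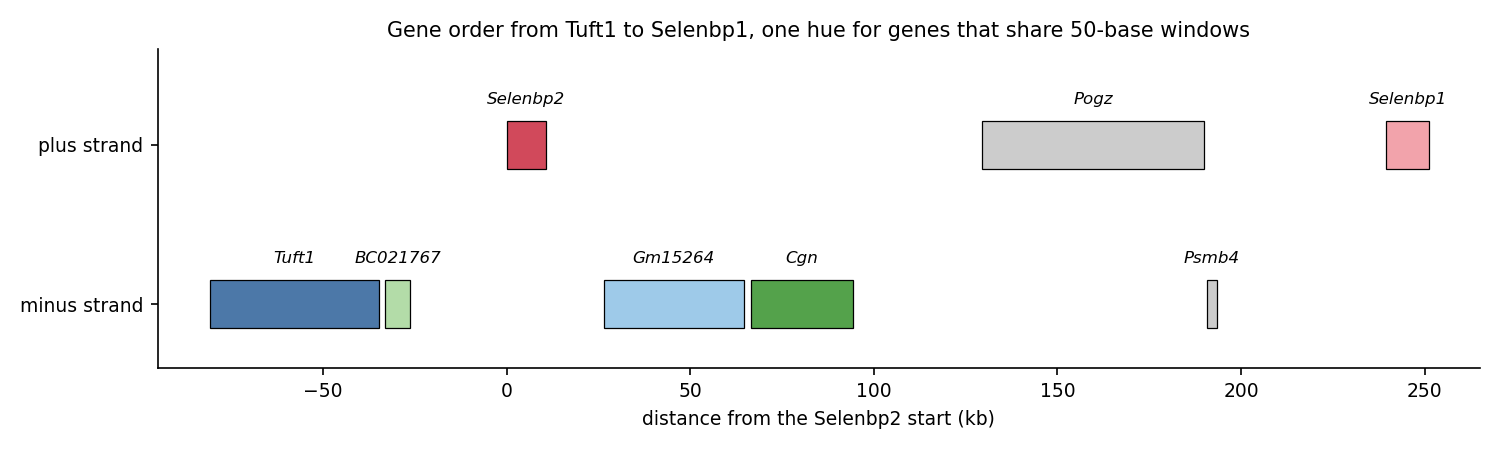
Gene order from Tuft1 to Selenbp1, with the distance from the Selenbp2 start in kb on the x axis and the strand on the y axis. Boxes are gene extents, and genes that share 50-base windows have one hue: Tuft1 with Gm15264, Cgn with BC021767 and Selenbp2 with Selenbp1.

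Selenbp2 and Selenbp1 are close to identical as transcripts. Both have 12 coding exons, of the same length in the same order, and their coding sequences of 1416 bases match at 1398 positions (98.7%), with a longest shared run of 193 bases. Of the 1670 windows of 50 bases along the Selenbp2 transcript, 869 (52.0%) occur in Selenbp1. The estimated levels of the pair therefore depend on how the authors' software divided shared reads, and both are uncertain to that extent. A stretch of 60 coding bases with the most differences found between the pair is printed here (GENCODE M21, plus strand), because reads that cover such positions are what separates them. It spans coding bases 390 to 449, at chr3:94698072-94698131 in Selenbp2 and chr3:94937984-94938043 in Selenbp1, and capitals mark the 4 differing bases.
Selenbp2: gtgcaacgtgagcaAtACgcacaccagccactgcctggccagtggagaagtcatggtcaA
Selenbp1: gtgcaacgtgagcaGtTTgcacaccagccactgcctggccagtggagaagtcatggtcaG

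The paralogs are also alike upstream. The RefSeq promoter table held an entry for 3 of the 4 genes looked up: Selenbp2, Selenbp1 and Cgn. Over the 250 bases before the start, Selenbp2 and Selenbp1 were 85.1% identical when aligned. The 220 bases from 250 to 31 before each start are printed here, as RefSeq GRCm38.p6 gives them on the plus strand (chr3:94693323-94693542 and chr3:94932833-94933052), to show how far the paralogs share their upstream letters. Capitals mark matches on either strand to GGAA, the core of ETS factor sites, and to TATAAA, where they lie wholly within the printed bases. The GGAA match of Selenbp2 nearest to the start runs past the printed end and is not marked.
Selenbp2: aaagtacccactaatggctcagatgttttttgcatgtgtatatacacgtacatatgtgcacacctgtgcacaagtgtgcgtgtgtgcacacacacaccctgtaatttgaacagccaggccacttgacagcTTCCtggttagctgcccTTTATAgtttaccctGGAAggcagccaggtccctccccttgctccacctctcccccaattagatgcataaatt
Selenbp1: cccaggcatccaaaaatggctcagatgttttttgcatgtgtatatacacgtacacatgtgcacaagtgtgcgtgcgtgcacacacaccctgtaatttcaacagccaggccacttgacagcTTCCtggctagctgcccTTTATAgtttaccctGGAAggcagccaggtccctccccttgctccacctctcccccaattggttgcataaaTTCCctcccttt

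Selenbp2, Selenbp1 and Cgn each held 3 matches to GGAA in the 250 bases, and 93.4% of the 32851 RefSeq promoter windows of that length held at least 1. TATAAA occurred once in Selenbp2 and once in Selenbp1 but not in Cgn, against 12.4% of all windows. Cgn had 1 match to CAGAC, the SMAD element, which 42.2% of windows held, and the Selenbp genes had none. GAGGAA, the PU.1 type of ETS site, which contains GGAA, was in none of the 3 windows and in 23.3% of all. The Cgn window had 19 CpG, and 19.7% of all windows had as many. Selenbp2 had 2 and Selenbp1 4, against a median of 6.0. These are matches of letters only.

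Trim33, the deleted gene, was measured first in each library, in TPM, a level scaled by transcript length and by library. In pDCs it stood at 20.6, 23.8 and 22.3 TPM in WT libraries and 12.6, 16.5 and 11.7 in cKO libraries. In cDC1s it was 15.5 and 18.2 TPM against 7.88 and 7.71, and in cDC2s 20.6, 18.2 and 17.2 against 7.93, 7.13 and 8.07. The cKO mean was thus 61.2% of the WT mean in pDCs, 46.3% in cDC1s and 41.3% in cDC2s, and WT and cKO libraries overlapped in no subset. Gene-level values do not separate the deleted part of the transcript from the rest. Trim33 was called lower by limma in cDC1s (log2 difference -1.02, SE 0.13, adjusted p = 0.000349) and cDC2s (-1.17, SE 0.11, adjusted p = 0.000126), where a call needs an adjusted p of at most 0.01 and a log2 difference of at least 0.5. In pDCs the difference of -0.68 (SE 0.13, adjusted p = 0.0301) was not called, but it was with replicate numbers as a block (adjusted p = 0.00361). The labels do not state that these numbers are pairs.

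Tuft1 was the most abundant member in every group. In WT pDCs it stood at 1.93, 2.52 and 2.47 TPM, and in cKO pDCs at 47.4, 43.3 and 49.6 TPM. In cDC1s the 2 WT libraries held 7.76 and 8.00 TPM, and the 2 cKO libraries 461 and 504 TPM. In cDC2s the levels were 8.94, 9.82 and 8.00 TPM in WT and 261, 263 and 240 TPM in cKO. The cKO mean was 20.3 times the WT mean in pDCs, 61.2 times in cDC1s and 28.5 times in cDC2s. On the log2(TPM + 1) scale the differences were 3.86 (SE 0.11), 5.77 (SE 0.11) and 4.69 (SE 0.09). Estimated reads ran from 42 to 54 in WT pDCs and from 11362 to 13124 in cKO cDC1s, so even the lowest Tuft1 values rested on more than a few reads. The levels ran in the order cKO cDC1, cKO cDC2, cKO pDC, WT cDCs and WT pDC, in which WT cDC1s and WT cDC2s did not differ beyond their spread. pDC and cDC tables were normalised separately, so an order across them compares levels as listed.

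Selenbp2 went from the edge of detection to a level near that of Tuft1 in cKO cDC2s. It was listed at 0 in all 3 WT pDC libraries and at 6.14, 4.46 and 4.42 TPM in cKO pDCs. WT cDC1s held 0 and 0.39 TPM, and cKO cDC1s 179 and 180 TPM (178.7 and 179.9). WT cDC2s held 0.68, 1.37 and 0 TPM, and cKO cDC2s 192.8, 184.8 and 159.3 TPM. No fold can be given in pDCs, where every WT library was at 0, and the log2 differences of 7.26 (SE 0.32) in cDC1s and 6.82 (SE 0.26) in cDC2s depend on the constant of 1 added to a low WT level. The WT values amount to at most 21 estimated reads, against 2709 to 3398 in cKO cDC libraries. The cKO cDC1 libraries lay within the range of the cKO cDC2 libraries, and both were far above cKO pDCs.

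Cgn was the least abundant member. WT pDC libraries held 0.05, 0.02 and 0 TPM, WT cDC1s 0.04 and 0, and WT cDC2s 0.15, 0.02 and 0.09. These were at most 7 estimated reads, where 3 reads correspond to 0.0549 to 0.0732 TPM. cKO pDCs held 1.57, 1.02 and 1.42 TPM, cKO cDC1s 5.39 and 5.01, and cKO cDC2s 6.88, 5.77 and 5.48. The log2 differences of 1.18 (SE 0.10), 2.60 (SE 0.16) and 2.69 (SE 0.13) in pDCs, cDC1s and cDC2s are therefore set by the cKO level alone and grow with a smaller added constant. The 2 cKO cDC1 libraries lay below all 3 cKO cDC2 libraries by a narrow margin.

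WT and cKO libraries did not overlap for any of the 3 members in any subset, which their choice for a higher level made likely beforehand. Of the tested genes within 500 kb of the members, 3 of 22 in pDCs, 17 of 23 in cDC1s and 9 of 23 in cDC2s did not overlap either. Non-overlap was thus not particular to the members, and its share over all tested genes was not taken. The share of all tested genes that was called in either direction was 1.05% in pDCs (0.814% higher and 0.239% lower), 22.4% in cDC1s (15.8% and 6.56%) and 7.15% in cDC2s (3.59% and 3.56%), and since the members were chosen on these contrasts nothing is read from the comparison. All 3 members had a mean of at least 1 TPM in the cDC table and so were among its 11411 tested genes, whereas Cgn fell short in the pDC table, where 2 of 3 were among 11299. They reached that level only through the cKO libraries, apart from Tuft1.

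**Figure D2:**
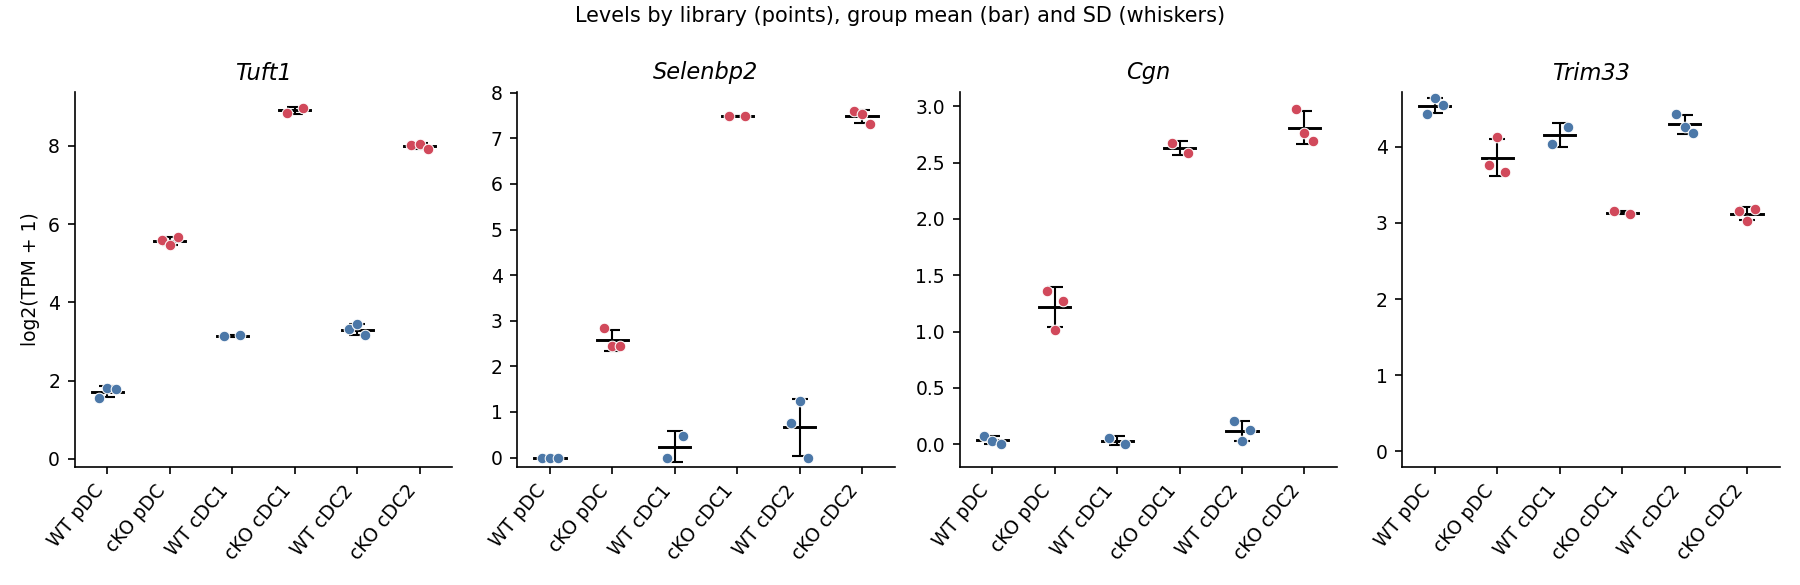
Levels of Tuft1, Selenbp2, Cgn and the deleted gene Trim33 in each library (points) as log2(TPM + 1), with group means (horizontal bars) and SD (whiskers), WT in blue and cKO in red. Each panel has its own y axis. The cKO points lie above the WT points for the 3 members and below them for Trim33 in pDCs, cDC1s and cDC2s.

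The members did not keep one ratio between them. Within cKO libraries, Tuft1 stood at 7.72 to 11.2 times the Selenbp2 level in pDCs, 2.58 to 2.80 times in cDC1s and 1.355 to 1.504 times in cDC2s. Selenbp2 stood at 3.11 to 4.37 times the Cgn level in pDCs, 33.2 to 35.9 times in cDC1s and 28.0 to 32.0 times in cDC2s. The ratio of Tuft1 to Cgn was 30.2 to 42.4 in pDCs and 38.0 to 45.5 in cDC2s, which overlap, and 85.6 to 100.5 in cDC1s. Relative to both other members Selenbp2 was lowest in cKO pDCs, and relative to Cgn Tuft1 was highest in cKO cDC1s.

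Whether the cKO effect differs between cDC1s and cDC2s is a question the choice of members did not use. For Tuft1 the difference of the effects was 1.08 on the log2 scale (SE 0.14, limma adjusted p = 0.00226), so that its rise was larger in cDC1s, and 2.56% of tested genes were called in this contrast, 1.21% higher and 1.35% lower. Both cKO cDC1 libraries lay above all 3 cKO cDC2 libraries. The median of all tested genes was 0.22 in the same contrast, and with scaling by the median of ratios the Tuft1 difference was 0.87 (SE 0.16, adjusted p = 0.0109) and no longer called. It also fell short when WT cDC1 replicate 1 (adjusted p = 0.0139), cKO cDC1 replicate 1 (0.0140), cKO cDC1 replicate 2 (0.0188) or cKO cDC2 replicate 3 (0.0105) was left out, with differences of 1.01 to 1.14 on the log2 scale. For Selenbp2 the difference of the effects was 0.43 (SE 0.41) and for Cgn -0.09 (SE 0.21). Both were among the tested genes only through their cKO level, with WT libraries at 0 to 21 estimated reads, so these differences rest on WT values near the floor and are given without a test. The Trim33 effects differed by 0.16 (SE 0.17, adjusted p = 0.539).

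In WT cells the 2 cDC subsets were not shown to differ in Tuft1. WT cDC1 over WT cDC2 gave -0.16 (SE 0.10, limma adjusted p = 0.231), in a contrast where 31.7% of all tested genes were called (10.9% higher and 20.8% lower) and their median was -0.17. With scaling by the median of ratios the Tuft1 value was 0.02. Selenbp2 and Cgn, at 0 to 21 estimated reads in WT libraries, were too low for a difference between WT subsets to be detectable at this depth.

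Selenbp1, the paralog of Selenbp2, was also higher in cKO cDCs. It stood at 1.32 and 1.05 TPM in WT cDC1s and 17.5 and 19.9 TPM in cKO cDC1s. WT cDC2s held 5.02, 5.05 and 3.81 TPM and cKO cDC2s 29.9, 23.2 and 20.7 TPM. The log2 differences of 3.17 (SE 0.19, limma adjusted p = 5.6e-06) and 2.18 (SE 0.15, adjusted p = 3.02e-05) were both called, also without any 1 of the 10 cDC libraries. In pDCs Selenbp1 was below the level for a test, at 0.58, 0.36 and 0.36 TPM in WT and 0.98, 1.27 and 1.69 TPM in cKO. In WT cells it was lower in cDC1s than in cDC2s (log2 difference -1.36, SE 0.17, adjusted p = 9.66e-05). The effects in cDC1s and cDC2s differed by 1.00 (SE 0.24, adjusted p = 0.0297), which was not called. Selenbp2 exceeded Selenbp1 by 9.05 to 10.2 times in cKO cDC1 libraries, 6.45 to 7.98 times in cKO cDC2s and 2.62 to 6.27 times in cKO pDCs. What part of the Selenbp1 values came from reads of Selenbp2 was not tested.

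**Figure D3:**
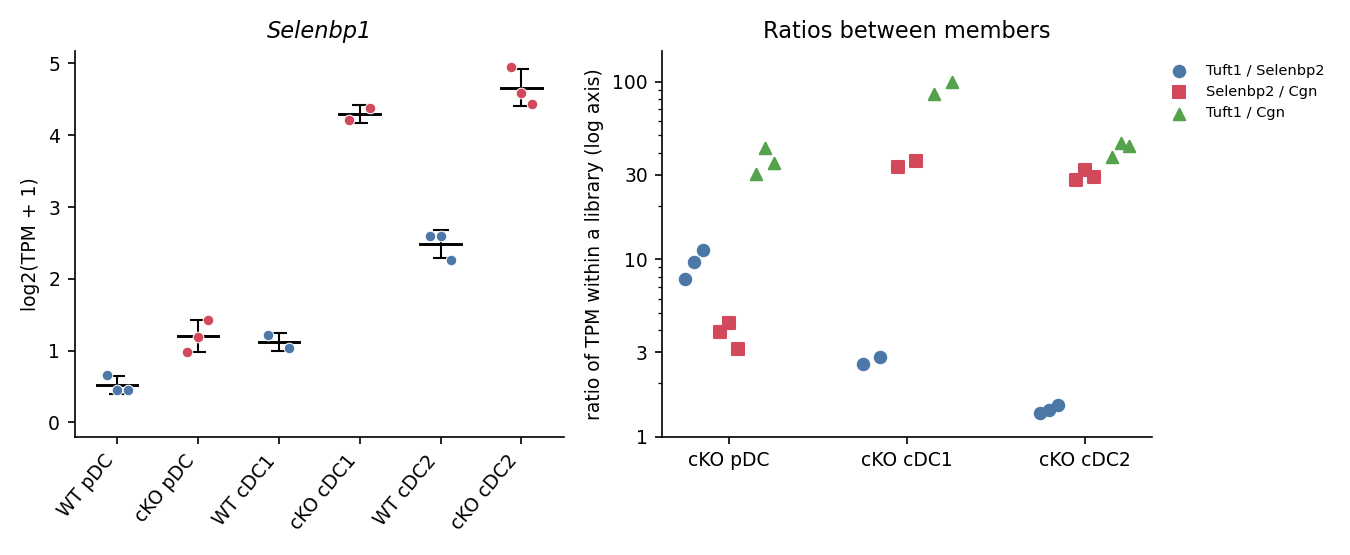
Left, Selenbp1 as log2(TPM + 1) in each library (points) with group means (bars) and SD (whiskers), WT in blue and cKO in red. Right, the ratio of TPM between members within each cKO library on a log axis. The Tuft1 to Selenbp2 ratio runs from 7.72 to 11.2 in cKO pDCs and from 1.355 to 1.504 in cKO cDC2s.

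The other genes around the cluster were examined to see how far the difference extends. The reference holds 62 genes within 500 kb on either side, of which 33 were listed in each table and 22 were tested in pDCs and 23 in cDCs. In pDCs limma called 0 of 22, with 2 at an unadjusted p under 0.05 (background 1.05%). In cDC2s 1 of 23 was called, Selenbp1, which is 4.35% against 7.15% of all tested genes. In cDC1s 7 of 23 were called, 30.4% against 22.4%, with 5 higher (background 15.8%) and 2 lower (6.56%). That count fell to 1 without either cKO cDC1 replicate, to 2 without either WT cDC1 replicate and to 4 without cKO cDC2 replicate 3.

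Besides Selenbp1, the called neighbours described here were called in cDC1s only and changed much less there than the members. Tdrkh, a tudor-domain gene of the piRNA pathway, rose by 0.76 (log2, SE 0.15, limma adjusted p = 0.00355). Snx27, a sorting nexin of endosomal recycling, rose by 0.60 (SE 0.14) and Gabpb2, a subunit of an ETS-family complex, by 0.68 (SE 0.16). Rfx5, a regulator of MHC class II promoters, fell by 0.50 (SE 0.11) and narrowly missed a call in cDC2s (-0.44, SE 0.09, limma adjusted p = 0.0101). Scnm1, a splicing factor, fell by 0.63 (SE 0.13). Each of these 5 calls was lost in 3 to 7 of the 10 fits that left out 1 cDC library, while their direction held. In the same contrast the median of all tested genes was 0.17, and with scaling by the median of ratios Snx27 (0.44) was no longer called. No call among the 23 tested neighbours was made for the difference between cDC1 and cDC2 effects (5 at an unadjusted p under 0.05).

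The tested genes nearest to the members were not called apart from Snx27. Mrpl9, a mitochondrial ribosomal protein gene on the Tuft1 side, gave log2 differences of 0.01 (SE 0.10) in pDCs, 0.46 (SE 0.17) in cDC1s and -0.01 (SE 0.14) in cDC2s. Snx27, next to it, gave -0.02 (SE 0.07) in pDCs and -0.08 (SE 0.12) in cDC2s. Between Cgn and Selenbp1, Pogz, a zinc-finger gene, gave -0.09 (SE 0.09), 0.11 (SE 0.18) and -0.26 (SE 0.15), and Psmb4, a proteasome subunit gene, 0.01 (SE 0.07), 0.25 (SE 0.12) and 0.23 (SE 0.10) in pDCs, cDC1s and cDC2s. Pogz and Psmb4 thus lie between 2 genes that were higher in cKO cDCs and were themselves not called.

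**Figure D4:**
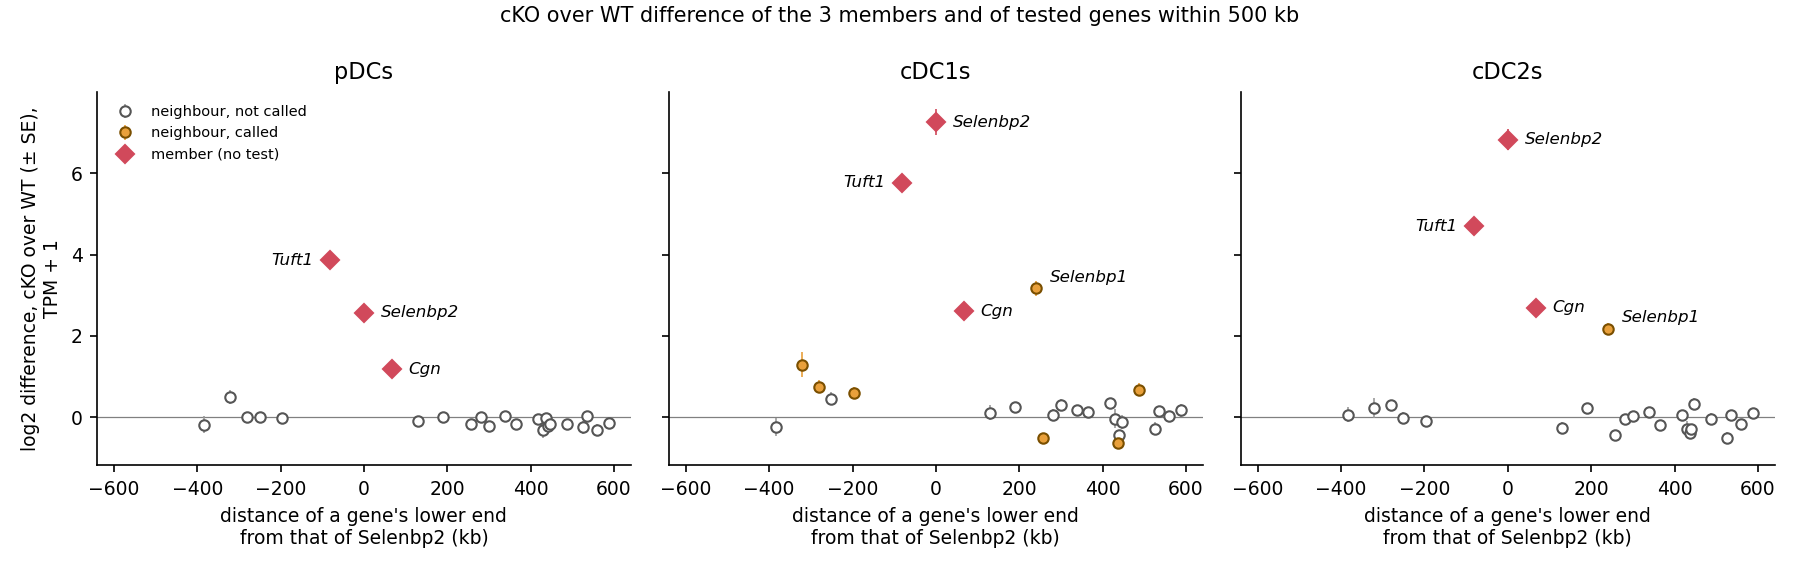
Log2 difference of cKO over WT on TPM + 1, with SE, against the distance of each gene's lower end from that of Selenbp2 in kb, for pDCs, cDC1s and cDC2s. Red diamonds are the 3 members, orange circles neighbours called by limma and open circles neighbours not called. The members stand at 1.18 to 7.26, and among neighbours Selenbp1 alone exceeds 2 in cDC1s and cDC2s.

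The 3 members had patterns close to each other's, as their choice for rising together in cKO cells fixed in advance, so nothing is read from it. Likeness was the smaller of 2 Pearson r of log2(TPM + 1), over the 6 pDC and over the 10 cDC libraries, and it is a description, since the points share libraries and fall into WT and cKO clusters. Between members it was 0.99 for Tuft1 and Selenbp2, 0.98 for Tuft1 and Cgn and 0.99 for Selenbp2 and Cgn. Candidates had to average at least 1 TPM in both tables, which left Cgn and Selenbp1 out and which Selenbp2 met only through its cKO libraries. Any gene with a large difference between WT and cKO in both tables scores high by this measure. Among the 10618 genes compared with Tuft1 and with Selenbp2 (10619 for Cgn), the candidates closest to Tuft1 were Selenbp2 (0.99), Mcm7 (0.98), Mcm5 (0.97), Apcdd1 (0.97) and Mcm2 (0.96). Mcm2, Mcm5 and Mcm7 encode subunits of the replicative helicase, and Apcdd1 an inhibitor of Wnt signalling. Those closest to Selenbp2 included Tuft1 (0.99), Atp1b3 (0.96), a subunit of the sodium pump, Mcm7 (0.95) and Apcdd1 (0.95). Those closest to Cgn were Selenbp2 (0.99), Tuft1 (0.98), Atp1b3 (0.96), Mcm7 (0.95) and Uhrf1 (0.94), of maintenance DNA methylation.

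Genes that work with the members were taken from lists by function. Of 46 cell junction genes, the setting of cingulin, 22 were tested in pDCs and limma called 0 (5 at an unadjusted p under 0.05, background 1.05%), while 5 of 23 were called in cDC1s (background 22.4%) and 3 of 23 in cDC2s (background 7.15%). Ybx3, a Y-box protein that binds ZO-1, rose in cDC1s (1.73, SE 0.15, limma adjusted p = 4.97e-05) and cDC2s (0.93, SE 0.12, adjusted p = 0.000958). Patj, a polarity scaffold, fell in both (-1.31, SE 0.14, and -0.87, SE 0.12). Ildr1 (-1.54, SE 0.29) and Cldn1 (-1.31, SE 0.26), which encode an angulin and a claudin, fell in cDC1s and Arhgef18 (1.24, SE 0.27), an exchange factor for RhoA, rose there. These 3 calls were lost in 3 to 5 of the 10 fits without 1 library. Lsr, another angulin, rose in cDC2s (0.83, SE 0.11), and its effect differed between the subsets (-1.01, SE 0.18, adjusted p = 0.00807), a call that 8 of 10 such fits lost. The list moved in no one direction, with a median log2 difference of -0.048 in cDC1s and 0.049 in cDC2s, against 0.17 and -0.03 over all tested genes.

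A list of 12 genes around SELENBP1 held genes of sulfide and methanethiol metabolism and also Txnrd1, Gpx1, Gpx4 and Usp33, which are not of that metabolism. Of these 12, 8 were tested in pDCs and limma called 0 (3 at an unadjusted p under 0.05, background 1.05%). In cDC1s 4 of 10 were called (background 22.4%) and in cDC2s 2 of 10 (background 7.15%). Besides Selenbp1, Ethe1, a persulfide dioxygenase, rose in cDC1s (0.95, SE 0.13, limma adjusted p = 0.000559), and Suox, sulfite oxidase, fell there (-1.21, SE 0.18, adjusted p = 0.00075). Sqor, the sulfide:quinone oxidoreductase, fell in cDC1s (-0.75, SE 0.15) and rose in cDC2s (0.73, SE 0.12), and the difference of the effects was called (-1.47, SE 0.19, adjusted p = 0.00197). The Sqor calls were lost in 3 or 4 of the 10 fits without 1 library. The list median was 0.361 in cDC1s and 0.208 in cDC2s, against 0.17 and -0.03 over all tested genes. Of 14 enamel matrix genes and tuftelin partners, only 3 were tested in pDCs and 2 in cDCs, and limma called 0 in each (at an unadjusted p under 0.05, 1 in cDC1s and 0 in the other subsets).

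Since Cgn and Selenbp2 are known from epithelium and liver, markers of those cells were measured beside them. In bulk libraries fewer cells of a type and less RNA per cell cannot be told apart. For each sorted subset 1 marker is given first. Siglech was at 4367 to 5131 TPM in pDCs and at most 9.60 in cDCs. Xcr1 was at 303 to 307 TPM in WT cDC1s, 202 to 224 in cKO cDC1s and at most 6.60 elsewhere. Sirpa was at 444 to 582 TPM in cDC2s against 3.75 to 7.43 in cDC1s, but also at 288.4 to 304.5 TPM in pDCs. Of 10 cDC1 markers limma called 3 lower in cKO cDC1s, Clec9a (541 to 214 TPM), Cadm1 (194 to 57.5) and Itgae (69.9 to 9.86), and 0 higher (background 6.56% lower and 15.8% higher). Of 10 cDC2 markers it called Itgam, Clec10a and Mgl2 higher and Esam, Irf4 and Dtx1 lower in cKO cDC2s (background 3.59% and 3.56%). Of 10 pDC markers it called Cox6a2 higher and 0 lower in cKO pDCs (background 0.814% and 0.239%). Markers of the other subsets were called too. The cDC2 marker Itgam was called higher in cKO pDCs (1.81 to 20.3 TPM). In cKO cDC1s the pDC markers Bst2, Tcf4 and Cox6a2 were called higher and Ccr9 and Pacsin1 lower. There the cDC2 markers Itgam and Clec10a were called higher and Esam lower. In cKO cDC2s Cox6a2 and the cDC1 marker Gcsam were called higher. Of 15 epithelial markers, the summed level was 152 to 188 TPM in WT pDCs and 151 to 182 in cKO pDCs, most of it Cdh1 (139 to 174 TPM). It was 5.48 to 10.7 and 7.89 to 16.2 TPM in WT and cKO cDC1s, and 14.1 to 24.6 and 9.25 to 16.5 TPM in WT and cKO cDC2s. Grhl2, the epithelial transcription factor, was at most 0.13 TPM in any library. cKO pDC replicate 3 held keratin RNA, with Krt19 at 7.72 TPM and the highest Krt14 level of the 16 libraries. Its Cgn level of 1.42 TPM lay between those of the other 2 cKO pDC libraries, in which Krt14 was 0.21 and 0.32 TPM. What part of the Cgn values came with epithelial RNA was not tested.

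Hepatocyte marker RNA was present in traces. Of the 3 such markers tested in cDCs, limma called 0 in either subset (0 at an unadjusted p under 0.05, background 22.4% in cDC1s and 7.15% in cDC2s). Of 10 such markers, 4 were listed for pDCs, with a sum of at most 0.94 TPM. In cDCs the sum was 1.17 to 12.7 and 0.39 to 21.8 TPM in WT and cKO cDC1s, and 0.07 to 30.4 and 0.45 to 16.3 TPM in WT and cKO cDC2s, led by Alb. Hnf4a, the hepatocyte transcription factor, was at most 0.05 TPM. cKO cDC1 replicate 2 and cKO cDC2 replicate 1 had Alb at 0 and Selenbp2 at 179.9 and 192.8 TPM. The other cKO cDC libraries had Alb at 5.22 to 8.84 TPM and Selenbp2 at 159.3 to 184.8 TPM. Alb was above 0 in 5 of the 10 cDC libraries, and in these Krt14 was at most 0.07 TPM, whereas it was 1.75 to 4.59 TPM in the other 5. Both sets held every cDC group. The differences were also taken within each, a split chosen after seeing the data. They are values with no test, from 1 WT and 1 cKO library in cDC1s and 3 libraries in cDC2s. The Tuft1 difference of cKO over WT was 5.68 in cDC1s and 4.66 in cDC2s in libraries with Alb, and 5.85 and 4.73 in those without. The Selenbp2 differences were 7.02 and 6.68 with Alb, and 7.50 and 6.98 without. The Cgn differences were 2.68 and 2.53 with Alb, and 2.53 and 2.90 without. The larger Tuft1 effect in cDC1s was 1.02 in the first set and 1.12 in the second. What part of the members' values came with such traces was not tested.

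Summed markers of other immune cells also differed between WT and cKO libraries. As background to the calls given here, limma called 1.05% of all tested genes in pDCs, 22.4% in cDC1s and 7.15% in cDC2s. Neutrophil markers summed to 9.07 to 29.7 TPM in WT pDCs and 30.3 to 139 in cKO pDCs, and to 1.88 to 17.4 and 23.1 to 43.0 TPM in WT and cKO cDC1s, while the cDC2 ranges overlapped. Of the 5 tested in each table limma called 0 (at an unadjusted p under 0.05, 3 in pDCs, 1 in cDC1s, 0 in cDC2s). NK cell markers summed to 49.0 to 62.4 against 102 to 114 TPM in cDC1s and to 25.3 to 43.9 against 59.9 to 68.4 TPM in cDC2s. Klrk1 carried these sums, with means of 52.6 and 106 TPM in WT and cKO cDC1s, and was the 1 of 3 tested that was called in each cDC subset, while the list median was 0.061 in cDC1s and -0.360 in cDC2s. T cell markers were lower in sum in cKO, for example 286 to 396 against 130 to 161 TPM in cDC2s, and this sum was mostly Cd4, which DCs also express and which was the 1 of 3 called in each cDC subset. In pDCs the other tested T cell markers had higher means in cKO, Cd5 at 5.87 and 10.5 TPM and Lck at 1.35 and 4.17 TPM in WT and cKO, and neither was called. B cell markers summed to 25.9 to 35.7 against 19.8 to 22.4 TPM in cDC1s and to 72.7 to 82.2 against 56.2 to 58.7 TPM in cDC2s, with Ms4a1 called lower in both and Cr2 and Blk lower in cDC2s, while Blk was called higher in pDCs. Macrophage markers summed to 103 to 170 TPM in WT pDCs and 173 to 291 in cKO pDCs, but to 179 to 222 against 73.0 to 79.3 TPM in cDC1s. In cDC2s the sums overlapped, at 638 to 1112 against 798 to 1267 TPM. Of 11 tested, limma called 0 in pDCs. Csf1r was called higher in both cDC subsets, and Vcam1 and Spic were called lower in cDC1s. The part of these cells in the values of the 3 members was not tested.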

How the data were processed

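RNA of sorted splenic DCs was sequenced by the authors as single-end 50-base reads. Per the labels and the study's methods, reads were filtered with SOAPnuke and mapped with HISAT2 2.0.4 to mm10 and with Bowtie2 2.2.5 to a transcript reference whose release is not given in the sources used here. Expression was then estimated with RSEM 1.2.12 and deposited by the authors as TPM and FPKM, in separate tables for pDCs and cDCs. RSEM divides reads that match several genes. The authors tested counts with DESeq2. The deposited TPM are not counts, so limma 3.58.1 (R 4.3.3) was run on log2(TPM + 1) with the authors' thresholds, over genes with a mean of at least 1 TPM, with Benjamini-Hochberg adjustment over all genes tested and both cDC subsets in 1 fit. No test was made across the tables.

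No table gives depth. It was estimated from the steps of the deposited FPKM values of low genes at 17.75 to 20.25 M reads, which is not exact, and estimated reads and the 3-read level follow from it. They cover counting error only. The fits were tested on simulated data. Sequence comparisons used Biopython 1.88.

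The members and gene lists were chosen with earlier results of these data known. The text names the members, Trim33, Selenbp1, the 2 nearest tested neighbours on each side, called neighbours, called genes of the pathway lists (at most 4 per contrast) and the 5 genes most like each member. Of the genes this rule gives, 2 are not reported here. Arhgef18 in cDC1s, beyond the 4, and the single markers of other cell types were named after their values were seen. The labels number the replicates and do not say that a shared number is a pair. A pairing was looked for in the same expression values, by correlating deviations from the group means. Same-numbered pDC libraries gave 0.310, 0.392 and 0.206, and differently numbered ones -0.2852 to -0.0334. In cDC1s the value was -0.233 for both same-numbered pairs and 0.233 for both crossed ones, which 2 libraries a group make equal in size. In cDC2s the same-numbered values were -0.249, 0.253 and -0.165. Differently numbered cDC2 libraries gave -0.3429 to 0.4675, the highest for WT replicate 3 with cKO replicate 1. Deviations within a group sum to 0, which constrains all these values. The alternatives were another pseudocount, no filter, FPKM, scaling by the median of ratios, a replicate block and leaving out each library, and, chosen after seeing the data, crossed cDC1 numbers and a term for cDC libraries with Alb above 0.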

Additional observations from a re-analysis of the deposited data

Results flagged for a closer look

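Tuft1 responded differently in the 2 cDC subsets. Its cKO over WT change was 5.77 in cDC1s and 4.69 in cDC2s on the log2 scale, and the difference of 1.08 (SE 0.14) passed limma's test of the difference itself (adjusted p = 0.00226, with a range of 0.00148 to 0.0188 over the fits that left out 1 library). Both cKO cDC1 libraries (461 and 504 TPM) lay above the 3 cKO cDC2 libraries (240 to 263 TPM), whereas WT libraries of the subsets met at 8.00 TPM. The difference kept its direction in all alternatives run and lost its call with scaling by the median of ratios and in 4 of the 10 fits without 1 library.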

How the results depend on the processing

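All alternatives kept the direction of the members' cKO over WT differences. The smaller pseudocount of 0.1 and FPKM in place of TPM moved their sizes, since both change the weight of the added constant at low levels. In pDCs they gave 4.29 and 3.48 for Tuft1, 5.66 and 1.74 for Selenbp2 and 3.54 and 0.69 for Cgn. In cDC1s they gave 5.92 and 5.56 for Tuft1, 9.66 and 6.38 for Selenbp2 and 5.48 and 1.84 for Cgn, and in cDC2s 8.52 and 6.14 for Selenbp2, 5.10 and 1.98 for Cgn and, with the pseudocount, 4.82 for Tuft1. Scaling by the median of ratios gave 5.61 for Tuft1 in cDC1s and 0.87 for its difference between subsets, which was then not called (adjusted p = 0.0109). Without the filter on low values 24 genes were called in pDCs in place of 119, and 4 neighbours in cDC1s in place of 7. The replicate block raised the pDC count to 335, under a pairing that the labels do not state. In cDCs, where same-numbered libraries were not alike throughout, the block gave 356 genes in cDC2s in place of 816. It gave 95 in place of 292 for the difference between subsets, 2070 in place of 3612 for WT cDC1 over WT cDC2, and 2 neighbours in cDC1s. With the cDC1 numbers crossed, 2091 genes and 3 neighbours were called in cDC1s. The block by the numbers as given changed no call of a member, and the crossed one was run only for these counts. With 1 library left out, called genes ran from 12 to 97 in pDCs, 800 to 2888 in cDC1s, 316 to 907 in cDC2s and 77 to 282 for the difference between subsets. Neighbours ran from 1 to 7 in cDC1s and 1 to 2 in cDC2s, and the Tuft1 difference between subsets from 1.01 to 1.14. Depth limits the WT levels of Selenbp2 and Cgn, which rest on 0 to 21 estimated reads.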
